A study of Mus musculus with 15 samples.

Results

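The promoters of 6 matrix metalloproteinase genes (Mmp2, Mmp3, Mmp9, Mmp13, Mmp14 and Mmp19) and of 3 genes for tissue inhibitors of metalloproteinases (Timp1, Timp2 and Timp3) were taken from an annotation of 25881 promoters by matching each RefSeq transcript to its gene symbol. This gave 10 promoters of 9 genes, because Mmp19 is listed with a pair of transcription start sites (TSSs) that lie 43 bp apart and share most of their fragments. The annotation gives every promoter a coverage score, the mean number of mapped fragments within 1000 bp of the TSS in non-stimulated cells, and a score above 100 was required for a test. Of the 10 promoters, 7 promoters of 6 genes passed (13559 of all 25881 promoters did), while Mmp2 (97.8), Timp3 (66.5) and Mmp3 (47.8) fell short and are described by their values alone. Mmp2 is just under the limit and the closest member above it is Mmp9 at 176.

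Matrix metalloproteinases are zinc-dependent proteases that are secreted or held at the cell surface and cut collagens, gelatins, proteoglycans and other matrix proteins. Most are made as inactive proenzymes that other proteases activate, and TIMPs block the active enzymes by binding their catalytic site. Several of the genes are textbook targets of the inflammatory cytokines and of AP-1, the Fos and Jun family of transcription factors that binds TGAGTCA, and fibroblasts and myeloid cells are both known sources of these proteins.

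Nucleosome positions were measured in 15 libraries by ChIP-MNase, in which chromatin recovered with an antibody is digested with micrococcal nuclease, an enzyme that removes the DNA between nucleosomes. Libraries against H3K4me1, a histone mark around promoters and enhancers, came from dendritic cells (DCs; differentiated in culture with GM-CSF from mouse bone-marrow progenitor lines), either non-stimulated or treated for 1 h with LPS at 100 ng/ml, and from mouse 3T3 fibroblasts, either non-stimulated or treated for 1 h with TNF-α at 5 ng/ml. Each of these 4 is a set into which the authors pooled 2 replicates, so it has no replicate error. A further 8 H3K4me1 libraries, 2 replicates of each group, came from control fibroblasts and from fibroblasts with Brg1/Brm knock-down (BAF-knockdown; a retroviral shRNA against both ATPases of the BAF remodelling complex, in a population sorted for GFP), non-stimulated or TNF-α-stimulated. Another 2 libraries against pol-II S7P and 1 against pol-II S5P (RNA polymerase II phosphorylated at serines of its tail) were from TNF-α-stimulated fibroblasts without knock-down.

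Deposited nucleosome occupancy is a signal relative to the fragments in the same neighbourhood, in 200 bins of 10 bp from −1000 to 1000 bp of each TSS, so it shows where nucleosomes lie and not how much chromatin was recovered. Read counts are not part of these values, and the depth of each library was not analysed here. At high-coverage promoters, the share of bins that held a fragment was 82.0 to 90.2% for the 4 pooled sets, 63.5 to 78.1% for the 8 single libraries against H3K4me1 and 69.2 to 81.2% for the 3 against pol-II. Mean occupancy was 1.61 to 1.63, 0.791 to 0.804 and 0.962 to 0.975 in the same order, so levels from pooled sets and single libraries are not on one scale. Single libraries were also noisy at any one promoter: the median correlation over the 200 bins between replicates was 0.154 to 0.213 in the 4 groups of H3K4me1 libraries. Expression values in the annotation come from other RNA-seq data and not from these libraries. By these values, most of the listed marker genes were high in their own cell-type. The DC genes Itgax, H2-Ab1 and Cd74 lay at or above the 98.7th percentile of promoters in DCs and at or under the 61.0th in fibroblasts. The fibroblast genes Col1a1, Col1a2 and Thy1 lay at or above the 98.6th percentile in fibroblasts and at or under the 55.9th in DCs. Exceptions were the DC gene Ptprc, at the 72.7th percentile in DCs, and the fibroblast gene Pdgfrb, at the 61.9th in fibroblasts. The fibroblast gene Fn1 was at the 99.8th percentile in fibroblasts and also at the 99.3rd in DCs.

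The clearest feature of the MMP and TIMP promoters was a nucleosome-depleted region (NDR) at Timp1 and Mmp14 in the pooled fibroblast sets that DCs did not have. The sequences of these promoters, from −200 to 29 bp of the TSS in mm9, are shown because the NDR values below come from them; capitals mark GC boxes (GGGCGG or its complement CCGCCC), the binding sequence of Sp1. Timp1 was read from chrX:20447092-20447321 and Mmp14 from chr14:55050241-55050470, both on the plus strand.
Timp1: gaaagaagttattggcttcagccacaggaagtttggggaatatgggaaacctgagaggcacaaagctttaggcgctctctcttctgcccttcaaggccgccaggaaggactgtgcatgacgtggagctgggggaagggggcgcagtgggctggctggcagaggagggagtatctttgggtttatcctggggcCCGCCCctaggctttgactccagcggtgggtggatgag
Mmp14: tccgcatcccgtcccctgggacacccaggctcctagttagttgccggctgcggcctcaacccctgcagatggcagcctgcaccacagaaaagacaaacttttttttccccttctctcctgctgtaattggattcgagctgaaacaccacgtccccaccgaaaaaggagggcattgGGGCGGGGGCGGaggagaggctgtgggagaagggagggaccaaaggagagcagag

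Mmp9, Mmp3, Mmp13 and Mmp19 each carry 1 copy of the AP-1 sequence (TGAGTCA or TGACTCA, capitals) between −250 and 50 bp of the TSS, which 4.66% of all 25738 promoters with sequence do, and Mmp3, Mmp13 and Mmp19 also carry TATAAA (capitals), which 12.7% do. They are shown from −110 bp so that the motifs can be set against the occupancy in the same bins. The stretches are chr9:7445712-7445851 for Mmp3, chr9:7272404-7272543 for Mmp13, chr10:128227856-128227995 for Mmp19 relative to its upstream TSS and chr2:164773641-164773718 for Mmp9, which ends at −33 bp where an annotated transcript begins. All are on the plus strand.
Mmp3: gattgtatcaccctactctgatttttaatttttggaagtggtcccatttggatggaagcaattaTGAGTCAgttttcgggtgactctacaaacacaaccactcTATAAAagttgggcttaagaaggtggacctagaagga
Mmp13: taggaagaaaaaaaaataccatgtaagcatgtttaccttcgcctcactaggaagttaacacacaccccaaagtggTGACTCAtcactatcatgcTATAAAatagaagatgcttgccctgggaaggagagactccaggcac
Mmp19: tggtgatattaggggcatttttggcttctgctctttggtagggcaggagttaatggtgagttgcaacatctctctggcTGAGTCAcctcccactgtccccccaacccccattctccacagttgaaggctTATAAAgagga
Mmp9: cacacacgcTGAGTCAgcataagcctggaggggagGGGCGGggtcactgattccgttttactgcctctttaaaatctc

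In base composition the promoters ranged widely. Timp3 and Timp2 were the most GC-rich, with a GC content of 68.3% and 70.8% within 200 bp of the TSS and 36 and 43 CpG dinucleotides, against medians of 58.2% and 20 over all promoters. Mmp14 had 19 CpGs, and these 3 promoters met criteria for a CpG island (GC content over 50% and an observed to expected ratio over 0.6), as 48.3% of promoters did. Mmp13 and both Mmp19 TSSs held 1 CpG each and Mmp3 held 2, so the promoters with an AP-1 sequence together with TATAAA were also the CpG-poor ones. The NF-κB sequences GGACTTTCC and GGAATTTCC, found in 0.361% and 0.334% of promoters, were not present in these windows of any member.

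Position in the genome differed too. Timp1 (TSS at chrX:20447292, plus strand) and Timp3 (chr10:85763157, plus strand) lie inside the synapsin genes Syn1 and Syn3, which are transcribed from the opposite strand, with the TSS outside any annotated Syn exon. Mmp13 (chr9:7272514) and Mmp3 (chr9:7445822) are 173308 bp apart in one gene cluster. The TSSs of Mmp2 (chr8:95351227), Mmp14 (chr14:55050441) and the downstream Mmp19 TSS (chr10:128228009) coincide with the first base of the annotated gene, while the upstream Mmp19 TSS (chr10:128227966) precedes it. The listed TSSs of Mmp9 (chr2:164773751), of Timp2 (chr11:118216725, minus strand) and of Timp3 fall within the 5′ UTR of a longer annotated transcript.

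Before stimulation, expression differed between the cell-types at some members and was alike at others. The deposited FPKM values come from other RNA-seq data and are on separate scales, so each gene is given as a percentile of all promoters in its cell-type. In fibroblasts, Timp2, Timp3, Mmp2 and Mmp14, the membrane-bound protease that activates proMMP2, lay at the 99.7th, 99.2nd, 99.0th and 99.0th percentiles. In DCs the same genes lay at the 77.1st, 58.6th, 74.1st and 98.5th, so Mmp14 alone of these 4 was near the top in both. Mmp19 was at the 87.8th percentile in fibroblasts and the 87.2nd in DCs by its upstream transcript, and at the 82.5th and 96.5th by its downstream transcript. The collagenase Mmp13 was at 0 FPKM in fibroblasts and at the 77.5th percentile in DCs, the stromelysin Mmp3 was at 0 in both, and the gelatinase Mmp9 was at the 60.3rd percentile in fibroblasts and the 67.0th in DCs. The listed Timp1 transcript had 0.00325 FPKM in fibroblasts (33.0th percentile) and 0.202 FPKM in DCs (59.4th percentile). Its percentile was thus the lower one in fibroblasts, the cell-type with the NDR at Timp1. RefSeq lists further Timp1 transcripts, so this transcript does not stand for the gene.

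At Timp1, which encodes a secreted inhibitor of many MMPs, the NDR was measured as the ratio of mean occupancy from −150 to 0 bp to that from −1000 to −500 bp. This NDR ratio was 1.63 in non-stimulated DCs and 0.782 in LPS-stimulated DCs, and 0 in both the non-stimulated and the TNF-α-stimulated pooled fibroblast sets. The fibroblast sets had no fragment at all from −160 to 120 bp and from −170 to 160 bp, whereas the DC sets held nucleosomes across the same bases. Of all high-coverage promoters, 6.77% had no fragment in the NDR window in both pooled fibroblast sets. Timp1 was also sparsely covered in fibroblasts, with 70.0% and 62.5% of its bins holding a fragment (the 7.21st and 8.91st percentiles of high-coverage promoters) against 96.5% and 100% in DCs, and the part of this low coverage in the NDR ratio was not tested. In non-stimulated fibroblasts the first nucleosome downstream was centred at 175 bp with an occupancy of 18.0, the highest of any member in the pooled sets. Occupancy reached 20 at most in the pooled sets, and the part of the low coverage in this value was not tested either.

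Single libraries gave a less uniform picture of Timp1. Control fibroblasts had NDR ratios of 0.0434 and 0.365 without stimulation and of 0 and 5.11 with TNF-α. The replicate at 5.11 held a fragment in only 35.0% of its Timp1 bins and had few fragments in the flank. Timp1 was sparsely covered in the others too. The share was 55.5% in the control TNF-α replicate at 0, 62.5% and 63.0% in non-stimulated controls and 50.5 to 70.5% in BAF-knockdown libraries. All 8 single libraries lay at the 5.52nd to 28.1st percentiles of high-coverage promoters. BAF-knockdown fibroblasts had ratios of 0.418 and 1.12 without stimulation and of 0.960 and 1.12 with TNF-α. Ratios under 0.5, called depleted here, were thus found in 3 of 4 control libraries and 1 of 4 BAF-knockdown libraries, and the groups overlapped because of the 1 control library at 5.11. In each of these 8 libraries 34.8 to 44.7% of all high-coverage promoters were depleted. Pol-II S7P gave 0 and 0.652, and pol-II S5P gave 0.130, where 38.2%, 35.0% and 52.3% of all high-coverage promoters were depleted. Which BAF-knockdown libraries were depleted depends on the window, as given below.

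**Figure D1:**
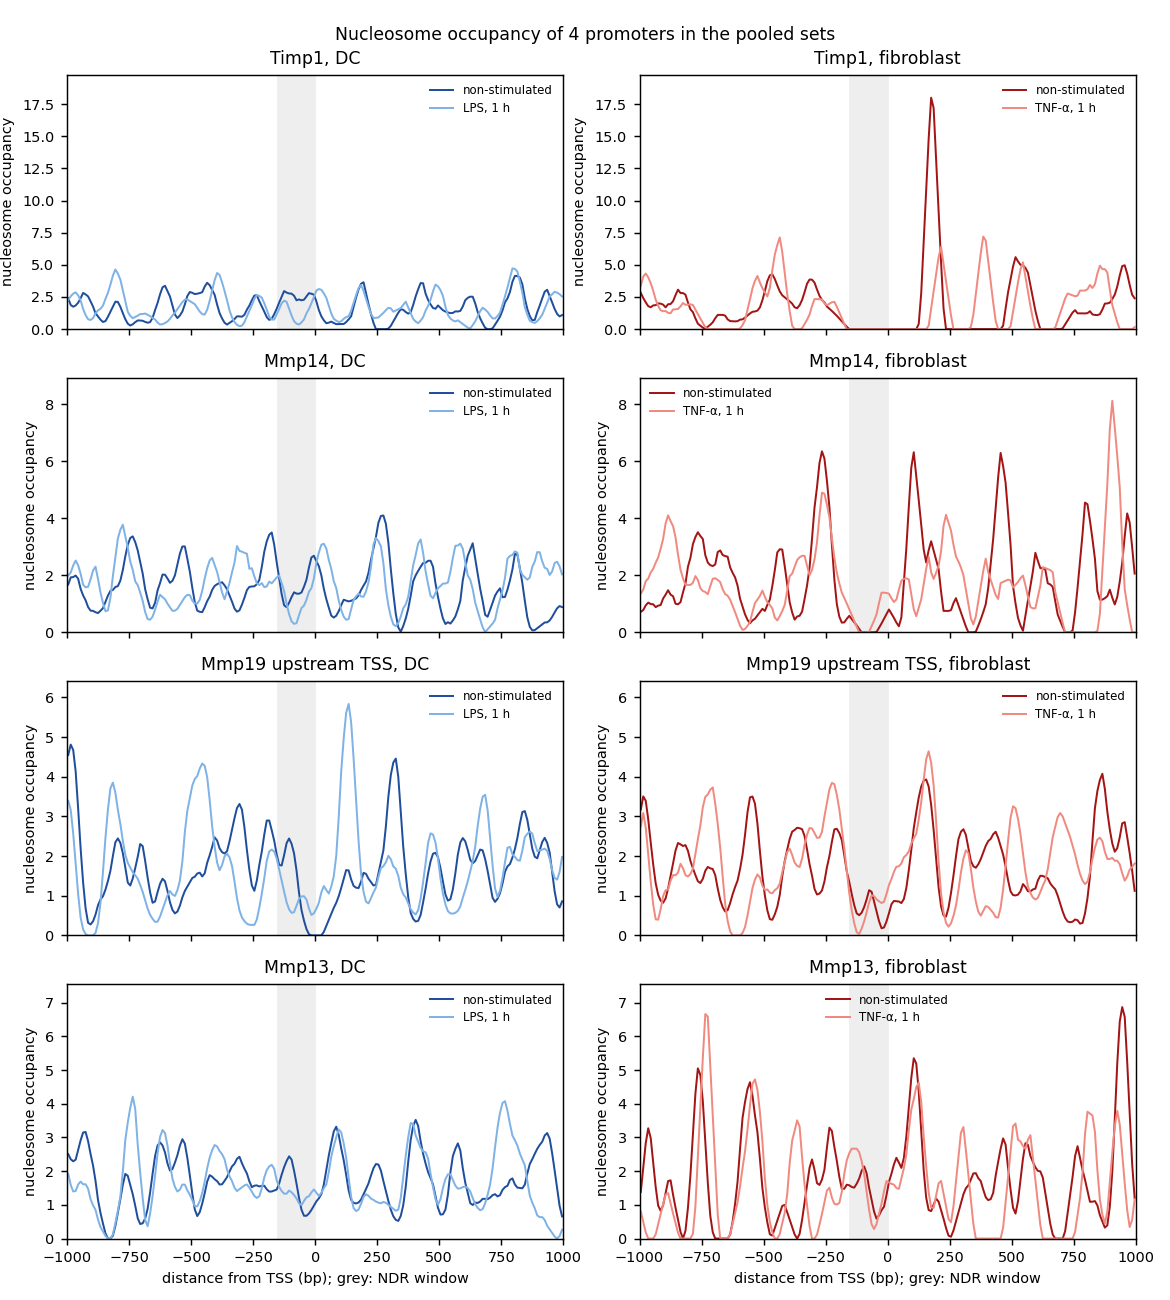
Nucleosome occupancy (y axis, relative to fragments nearby) against distance from the TSS in bp (x axis) for Timp1, Mmp14, the upstream TSS of Mmp19 and Mmp13, with DCs on the left and pooled fibroblast sets on the right, dark lines non-stimulated and pale lines stimulated. Timp1 has no fragment over the grey NDR window in either fibroblast set, and Mmp14 falls to an NDR ratio of 0.112 and 0.293 there, while Mmp13 has ratios of 0.719 to 0.929 in the 4 sets.

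Mmp14 showed the same contrast with better coverage. Its NDR ratio was 0.883 in non-stimulated and 0.661 in LPS-stimulated DCs, and 0.112 and 0.293 in the non-stimulated and TNF-α-stimulated pooled fibroblast sets. In non-stimulated fibroblasts the bins from −110 to −50 bp were empty. The adjacent GC boxes at −25 to −14 bp lay under an occupancy of 2.27 and 2.63 in non-stimulated DCs and of 0.308 and 0.474 in non-stimulated fibroblasts. In the stimulated sets these boxes did not differ in this way, with 1.42 and 1.55 in LPS-stimulated DCs and 1.39 and 1.39 in TNF-α-stimulated fibroblasts. Of the single fibroblast libraries, 6 of 8 were empty there. Mmp14 was covered less in these, with 52.5 to 72.5% of bins holding a fragment in control libraries. These shares lay at the 12.6th to 67.4th percentiles of high-coverage promoters. In BAF-knockdown libraries the share was 67.0 to 83.5%. Both control libraries had a ratio of 0 after TNF-α but 0.982 and 0.590 without stimulation, the BAF-knockdown libraries had 0.658 and 0 without stimulation and 0.135 and 0.463 after TNF-α, and all 3 pol-II libraries lay at 0.304 to 0.425. Depletion was found in both pooled sets, in 5 of 8 single H3K4me1 libraries and in 3 of 3 pol-II libraries of fibroblasts. Of all high-coverage promoters, 34.8 to 44.7% were depleted in each single H3K4me1 library and 35.0 to 52.3% in each pol-II library. Depletion at Mmp14 was found in neither DC set. Which single libraries were depleted depends on the window, as given below.

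Mmp19, a secreted MMP, had an intermediate arrangement at its upstream TSS. The NDR ratio there was 0.781 and 0.574 in non-stimulated and LPS-stimulated DCs, 0.357 and 0.407 in the pooled fibroblast sets, and 0.610 or higher in every single H3K4me1 library. Relative to the downstream TSS it was 0.507 and 0.493 in DCs and 0.419 and 0.698 in the fibroblast sets. In non-stimulated DCs the run of empty bins was at −20 to 30 bp of the upstream TSS, and it covered TATAAA at 19 to 24 bp. AP-1 at −32 to −26 bp had an occupancy of 0.0300 and 0.677 in non-stimulated and LPS-stimulated DCs and of 0.181 and 0.816 in the pooled fibroblast sets. In each cell-type the stimulated value was the higher one, without replicates to test this.

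Counted together, 3 of the 7 high-coverage promoters (Timp1, Mmp14 and the upstream Mmp19 TSS) were depleted in both pooled fibroblast sets and in neither DC set, against 3.84% of all high-coverage promoters. None had the opposite arrangement (3.2% of all), none was depleted in all 4 sets (17.6% of all), and 2 were depleted in none (31.7% of all). By set, 0 of 7 were depleted in non-stimulated DCs and 1 of 7 in LPS-stimulated DCs, where 40.1% and 42.8% of all promoters were, and 4 of 7 in each pooled fibroblast set, where 41.7% and 45.1% were. With 7 promoters, of which 2 overlap, these counts are a description. They depend in part on the window: from −100 to 50 bp, 2 of 7 were depleted in non-stimulated DCs. These included the upstream Mmp19 TSS, whose ratio was then 0.362 in non-stimulated DCs and 0.687 in TNF-α-stimulated fibroblasts. The Mmp19 contrast between cell-types thus rests on the window, while Timp1 and Mmp14 kept theirs in the pooled sets. Single libraries moved with this window at both genes. Mmp14 then had 0.301 and 0.0142 in non-stimulated and 0 and 0 in TNF-α-stimulated control libraries. In BAF-knockdown libraries it had 0.730 and 0 without and 0.52 and 0.82 with TNF-α. Timp1 had 0.00799 and 0.104 without and 0.129 and 0.688 with TNF-α in BAF-knockdown libraries.

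**Figure D2:**
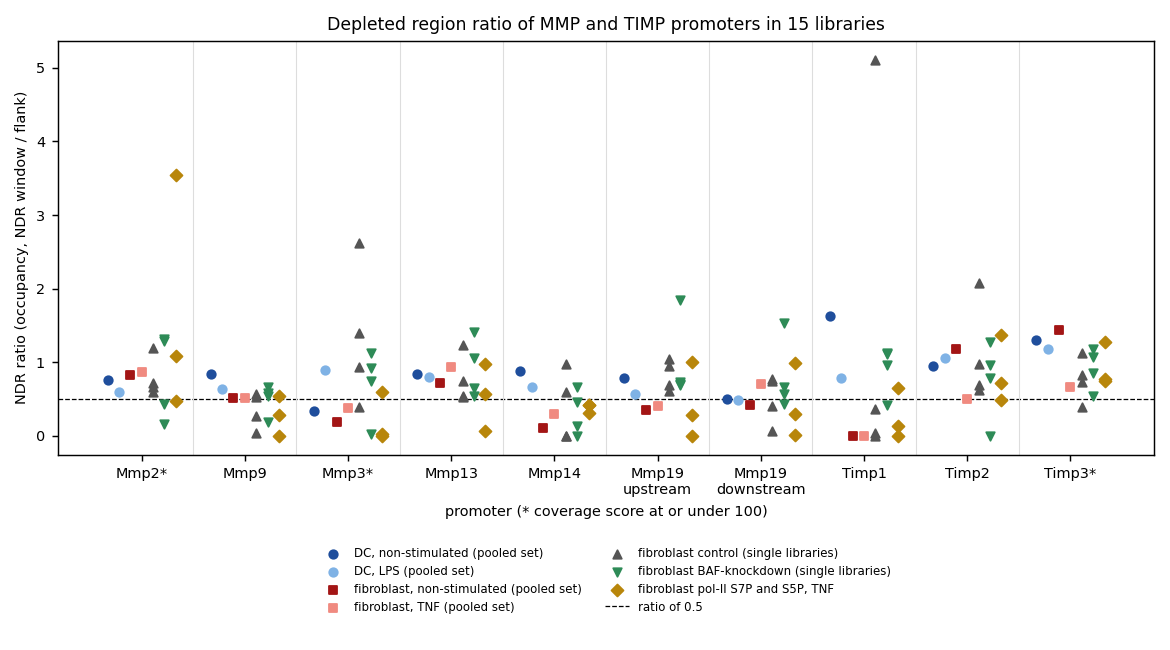
NDR ratio (y axis, occupancy at −150 to 0 bp over occupancy at −1000 to −500 bp) of the 10 promoters (x axis) in each of 15 libraries, with 1 point per library, colours and shapes for cell-type, treatment and antibody, and a dashed line at 0.5. The pooled fibroblast sets lie under 0.5 and the DC sets above it at Mmp14, Timp1 and the upstream Mmp19 TSS, and single libraries of one group are often far apart, up to 5.11 at Timp1.

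The remaining high-coverage members, Mmp9, Mmp13 and Timp2, were not depleted in the non-stimulated pooled set of either cell-type. Mmp9 had NDR ratios of 0.840 and 0.634 in DCs and of 0.512 and 0.518 in the pooled fibroblast sets, just above the limit for depletion, with 0.0406 to 0.664 over the 8 single H3K4me1 libraries. In pol-II libraries it was depleted in both S7P replicates (0 and 0.278) and not in S5P (0.546), where 38.2%, 35.0% and 52.3% of all high-coverage promoters were. Coverage of Mmp9 was sparse there, with 49.5% and 73.5% of its bins holding a fragment in S7P and 67.0% in S5P. These shares lay at the 18.6th, 26.6th and 19.3rd percentiles of high-coverage promoters. Its AP-1 sequence (−101 to −95 bp) was empty in both pooled fibroblast sets and had an occupancy of 1.32 and 0.541 in non-stimulated and LPS-stimulated DCs. No run of empty bins at Mmp9 exceeded 10 bp in these fibroblast sets, and 3 of 8 single fibroblast libraries were empty at the AP-1 sequence. Mmp13, silent in fibroblasts, had ratios of 0.719 to 0.929 over the 4 pooled sets and 0.530 to 1.41 over the 8 single libraries, so it was depleted in none of these 12. Of the pol-II libraries, 1 S7P replicate was depleted at Mmp13 (0.0698), while the other S7P replicate and S5P were not (0.971 and 0.568). Its AP-1 sequence (−35 to −29 bp) had an occupancy of 0.675 to 1.22 and its TATAAA (−16 to −11 bp) of 0.849 to 1.40 over the pooled sets. Timp2, the inhibitor that also takes part in proMMP2 activation, had 0.955 and 1.06 in DCs and 1.18 and 0.497 in the fibroblast sets and 0.487 to 1.36 over the pol-II libraries, with high expression in fibroblasts.

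Values at the 3 promoters of low coverage are less certain. Mmp3 had NDR ratios of 0.341 and 0.894 in DCs, 0.192 and 0.377 in the pooled fibroblast sets and 0.0307 to 2.61 over the single H3K4me1 libraries. Its AP-1 sequence at −46 to −40 bp was empty or nearly so in the fibroblast sets (0 and 0.0400) and had an occupancy of 0.246 and 2.23 in DCs. Mmp2 had ratios of 0.599 to 0.870 over the 4 pooled sets. Timp3 had 1.30 and 1.18 in DCs and 1.44 and 0.657 in fibroblasts, so Mmp2 and Timp3, like Timp2, were highly expressed in fibroblasts and not depleted in the non-stimulated pooled set. Among the 4 non-stimulated single libraries, the exception for these 3 genes was Timp2 with a ratio of 0 in 1 BAF-knockdown library. From −100 to 50 bp the 3 genes still had 0.709 to 0.891 in the non-stimulated pooled fibroblast set. Timp3 then had 0.388 in non-stimulated DCs, empty from −40 to 160 bp, and 0.463 in TNF-α-stimulated fibroblasts. Timp2 had 0.421 in LPS-stimulated DCs and 0.194 in TNF-α-stimulated fibroblasts. Timp2 and Timp3 were also under 0.5 in non-stimulated control replicate 2 (0.0252 and 0.444) and BAF-knockdown replicate 1 (0.353 and 0.425).

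A patterning level was then calculated for each promoter, which sums over all bins the product of its occupancy and the mean profile of active promoters in the same cell-type, and is high where nucleosomes lie as they do at active promoters. The mean profile had its minimum at −55 bp and its first downstream nucleosome at 135 bp in both cell-types. At Timp1 the level was −6.87 and 2.08 in non-stimulated and LPS-stimulated DCs (8.79th and 36.2nd percentiles of high-coverage promoters) and 34.4 and 9.34 in the pooled fibroblast sets (99.0th and 60.9th). Timp1 was sparsely covered in these fibroblast sets, and the part of this in its level was not tested. At Mmp14 it was −3.62 and −2.73 in DCs (15.9th and 19.4th) and 20.9 and 8.38 in the fibroblast sets (88.9th and 57.7th). Levels at the upstream Mmp19 TSS were 8.58 and 19.2 in DCs and 16.6 and 17.5 in fibroblasts, between the 61.1st and 88.2nd percentiles in all 4 sets.

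Mmp19 was the one high-coverage member patterned in the pooled sets of both cell-types. A promoter is called patterned here if its level is above the upper quartile of high-coverage promoters with no expression in that cell-type. Both Mmp19 TSSs were patterned in all 4 pooled sets, and they were the 2 of 7 patterned promoters in either DC set, where 45.8% (non-stimulated) and 45.4% (LPS) of all promoters were patterned. In the pooled fibroblast sets 6 of 7 and 5 of 7 were patterned against 49% and 48.7% of all. Timp2, at the 11.6th and 47.4th percentiles, was patterned in neither, and Mmp9 (6.79 and 1.80) was patterned in the non-stimulated set alone. Mmp13 had levels of 7.37 and 8.41 in the fibroblast sets, which passed the limit, against 0.924 and 2.68 in DCs, although it was expressed in DCs and at 0 in fibroblasts. Mmp3, of low coverage and at 0 FPKM in both, had levels of 8.94 and 5.45 in non-stimulated and LPS-stimulated DCs and 17.1 and 8.06 in the fibroblast sets, and was patterned in 3 of these 4, all but LPS-stimulated DCs.

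**Figure D3:**
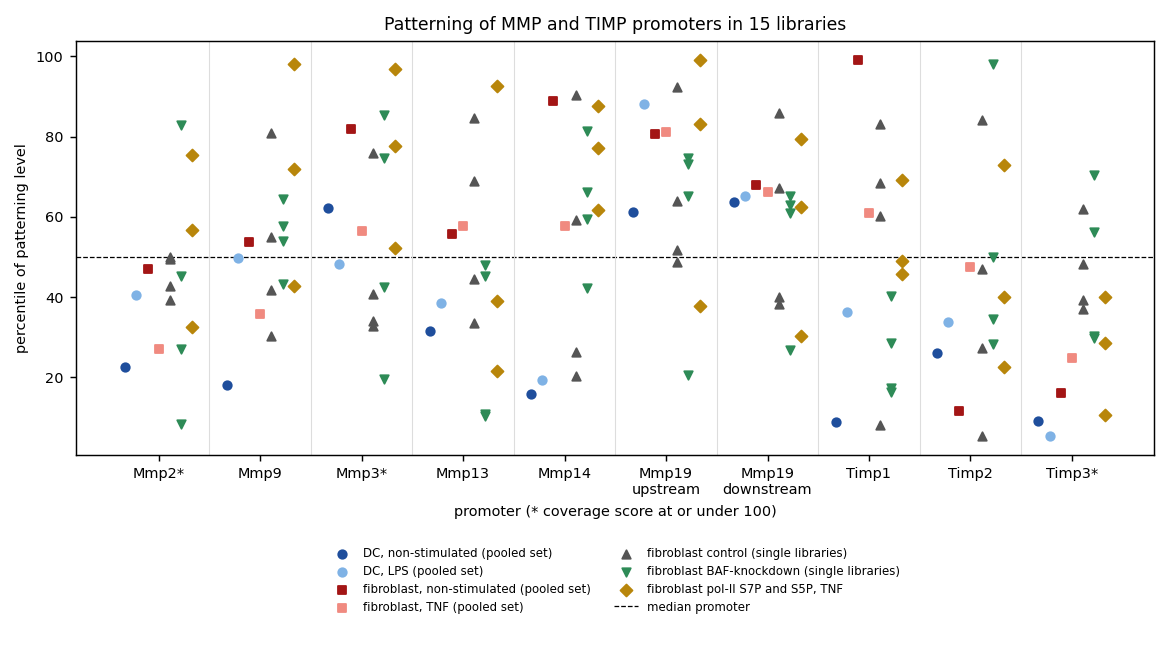
Percentile of the patterning level among 13559 high-coverage promoters of the same library (y axis) for the 10 promoters (x axis), with 1 point per library, colours and shapes for cell-type, treatment and antibody, and a dashed line at the median promoter. Mmp14 and Timp1 lie at or under the 36.2nd percentile in DCs and at or above the 57.7th in the pooled fibroblast sets, and every promoter spreads widely over the single libraries.

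DCs were compared with fibroblasts by limma over all 12 H3K4me1 libraries, on levels divided by the mean occupancy of each library. The estimate equals the difference between the 2 DC sets and the 2 pooled fibroblast sets, while the single libraries add to the estimate of the spread. The effect (DC minus fibroblast) was −14.9 ± 5.47 SE at Timp1 (limma, unadjusted p = 0.0183, adjusted p = 0.999) and −10.9 ± 5.43 SE at Mmp14 (limma, unadjusted p = 0.0667, adjusted p = 0.999). Without 1 of the 4 pooled sets at a time, fits that were added after the data were seen, the Timp1 effect was −7.90 (without non-stimulated DCs), −21.9 (without LPS-stimulated DCs), −9.38 (without non-stimulated fibroblasts) and −20.4 (without TNF-α-stimulated fibroblasts), and the Mmp14 effect was −11.6, −10.3, −5.38 and −16.5 in the same order. The direction was the same in these fits, with sizes that differed by more than 1.5 times. The other 5 effects lay between −3.73 and 0.572, each under its standard error. None of the 7 promoters passed an adjusted p of 0.05, and 6 of all 13559 did (0.0443%). The median effect was −1.89 over the 7 promoters and −0.238 over all promoters. Levels of both DC sets were under those of both fibroblast sets at 4 of 7 promoters (Timp1, Mmp14, Mmp13 and the downstream Mmp19 TSS; 20.6% of all) and above them at 0 of 7 (18.2% of all).

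TNF-α stimulation was tested in the 8 single H3K4me1 libraries with knockdown as a second term. None of the 7 promoters passed the test (limma, adjusted p of 0.870 or higher), and 0 of all 13559 promoters passed (0%; 770 at an unadjusted p under 0.05, 5.68%). The smallest p of a member was at Timp1, whose levels were 7.55 and 5.65 in non-stimulated control libraries, 3.52 and −6.53 with TNF-α, −0.887 and 0.422 in non-stimulated BAF-knockdown libraries and −2.52 and −3.28 with TNF-α. Both stimulated libraries were under both non-stimulated ones in control cells (1 of 7 members, 16.6% of all promoters) and in BAF-knockdown cells (2 of 7, with the upstream Mmp19 TSS; 13.4% of all), and the effect was −5.39 ± 2.58 SE (limma, unadjusted p = 0.0758, adjusted p = 0.870). Next came Timp2 at −7.30 ± 4.42 SE (limma, unadjusted p = 0.143, adjusted p = 0.883), which is not separated from its spread: its non-stimulated libraries ran from −1.29 to 16.7 and its stimulated ones from −7.99 to 2.66.

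BAF-knockdown, compared in the same fit, moved no member past the threshold either (limma, adjusted p of 0.856 or higher; 0 of 13559 promoters, 0%, with 792 at an unadjusted p under 0.05). Mmp13 had levels of 7.96, 1.82, −0.321 and 5.74 in control libraries and of −4.36, 1.69, −4.34 and 1.94 in BAF-knockdown libraries, an effect of −5.07 ± 2.72 SE (limma, unadjusted p = 0.105, adjusted p = 0.856). In each pair of values from the same state the knock-down libraries were lower on average, yet the groups overlapped. Timp1 followed with −4.12 ± 2.58 SE (limma, unadjusted p = 0.156, adjusted p = 0.871), and both non-stimulated BAF-knockdown libraries were under both non-stimulated controls at Timp1 and Mmp13 (2 of 7 members, 18.1% of all promoters). Medians of the BAF-knockdown effect were −0.999 over the 7 promoters and 0.0544 over all. Mmp14 and both Mmp19 TSSs were above both controls there (3 of 7, 15% of all). With TNF-α, 0 of 7 BAF-knockdown promoters were above both controls (18.4% of all) and 1 of 7, the downstream Mmp19 TSS, was under both (15.1% of all). Within replicate 1 and within replicate 2 alone the effect was −8.16 and −1.97 at Mmp13 and −7.24 and −0.994 at Timp1. Both replicate 1 BAF-knockdown libraries carry an MNase label that differs from that of the other single libraries. Within replicate 1, knockdown and this label therefore cannot be told apart, and the same libraries enter the main fit.

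**Figure D4:**
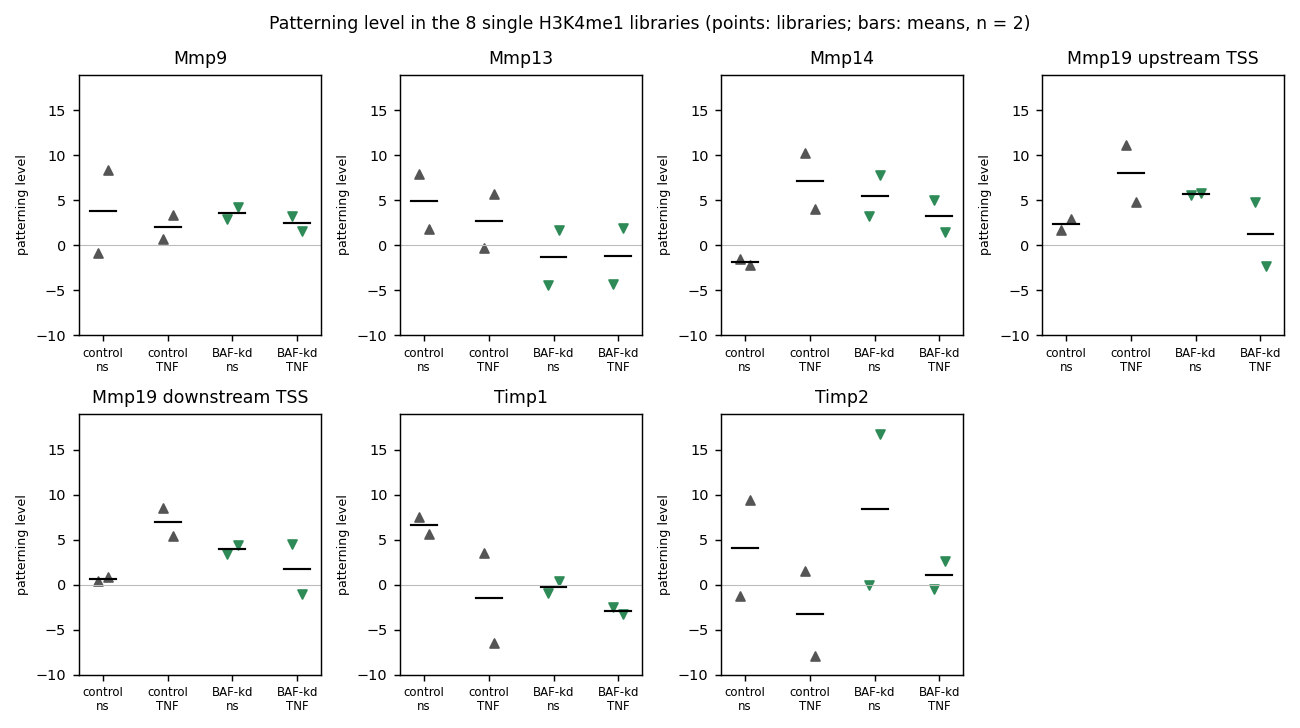
Patterning level (y axis) of the 7 high-coverage promoters in the 8 single H3K4me1 libraries, grouped by knockdown and stimulation (x axis; ns, non-stimulated), with points for libraries and bars for the mean of 2. At Mmp14 and both Mmp19 TSSs the control libraries with TNF-α are above those without, and in BAF-knockdown libraries they are not.

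Whether the response to TNF-α differed with knockdown was tested by an interaction term. At Mmp14 the levels were −1.48 and −2.22 in non-stimulated control libraries and 10.3 and 4.09 with TNF-α, but 3.23 and 7.85 in non-stimulated BAF-knockdown libraries and 5.04 and 1.46 with TNF-α. The interaction was −11.3 ± 4.54 SE (limma, unadjusted p = 0.0471, adjusted p = 0.860). The part of the sparse Mmp14 coverage of some of these libraries in it was not tested. At the downstream Mmp19 TSS the levels went from 0.442 and 0.854 to 8.57 and 5.43 in control libraries and from 3.41 and 4.44 to 4.51 and −1.05 in BAF-knockdown libraries, an interaction of −8.55 ± 3.93 SE (limma, unadjusted p = 0.0729, adjusted p = 0.860). Control libraries with TNF-α were above those without at 3 of 7 promoters, Mmp14 and both Mmp19 TSSs (15.6% of all promoters), and BAF-knockdown libraries were so at 0 of 7 (20.1% of all). No promoter of the 13559 passed the interaction test (0%; 766 at an unadjusted p under 0.05, 5.65%), and in the pooled fibroblast sets Mmp14 went the other way, from 20.9 without to 8.38 with TNF-α.

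Pol-II S7P libraries hold nucleosomes recovered with the polymerase, and were compared with the stimulated control H3K4me1 libraries on scaled levels. None of the 7 promoters passed the test (limma, adjusted p of 0.817 or higher), nor did any of the 13559 (0%; 840 at an unadjusted p under 0.05). The S7P replicates themselves were far apart: the level of Mmp9 was 18.3 and 1.87, that of the upstream Mmp19 TSS 22.6 and 1.05 and that of Mmp13 −2.76 and 12.3. Mmp9 had the smallest p, with 7.88 ± 6.90 SE (limma, unadjusted p = 0.317, adjusted p = 0.817), and Timp1 had 6.41 ± 5.62 SE (limma, unadjusted p = 0.318, adjusted p = 0.817). Each rests on 1 library: the Mmp9 effect was −0.661 without S7P replicate 1, and the Timp1 effect was 0.123 without stimulated control replicate 2 and 12.7 without stimulated control replicate 1. Mmp14 had S7P levels of 10.9 and 7.81, and its profiles correlated at 0.64 over the 200 bins against a median of 0.24 over all promoters. Reads were single-end for H3K4me1 and paired-end for pol-II, so antibody and read type cannot be told apart.

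First nucleosome positions were read from the pooled sets as the closest occupancy peaks on either side of the TSS, without the lowest 20% of peak prominences. At Timp1 the flanking peaks lay at −315 and 175 bp in non-stimulated and −215 and 215 bp in TNF-α-stimulated fibroblasts, and at −25 and 195 bp and −125 and 15 bp in the DC sets. At the upstream Mmp19 TSS the downstream peak lay at 155 and 165 bp in the fibroblast sets and at 125 and 35 bp in the DC sets. Over the 7 promoters the median distance between flanking peaks was 220 and 260 bp in fibroblasts and 230 and 140 bp in DCs, and it grew to 360, 390, 320 and 310 bp when the lowest 40% of prominences were left out, so these positions rest on that choice.

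Profiles over the 200 bins were compared between sets as a description. Between non-stimulated and TNF-α-stimulated fibroblasts the correlation was 0.12 at Mmp14 and 0.23 at Timp1 against a median of 0.31 over all high-coverage promoters, and 0.39 at Mmp13. Between non-stimulated DCs and fibroblasts it was 0.05 at Mmp14, 0.25 at Timp1 and 0.42 at Mmp13 against a median of 0.28. In DCs, LPS-stimulated and non-stimulated profiles correlated at 0.48 at Timp2 and 0.11 at Mmp9, against a median of 0.37.

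Timp2 had the patterning percentile that ranged most over the 15 libraries, from 5.46 in a TNF-α-stimulated control library to 98.0 in a non-stimulated BAF-knockdown library. The high-coverage promoters of other genes whose percentile followed it most closely over the 15 libraries were Smco3 (r = 0.863), Mir381 (r = 0.840) and Wbscr25 (r = 0.827), chosen as the highest of 13133 promoters.

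Among the other genes of the pathway, 9 further metalloproteinase genes, 6 activators and regulators and 4 substrate genes had high-coverage promoters, and none was called in any of the 5 tests. At the further metalloproteinase promoters, NDR ratios were under 0.5 at 3 of 9 in non-stimulated DCs (40.1% of all promoters), 6 of 9 in LPS-stimulated DCs (42.8% of all), 3 of 9 in non-stimulated fibroblasts (41.7% of all) and 2 of 9 in TNF-α-stimulated fibroblasts (45.1% of all). In the same order of sets, 2, 2, 4 and 4 of 6 activators and regulators and 0, 1, 1 and 1 of 4 substrate genes were depleted. Plau, the urokinase protease that starts plasmin-dependent MMP activation, was depleted in all 4 pooled sets (0.310 and 0.400 in fibroblasts, 0.495 and 0.153 in DCs), and Plat, which encodes tissue plasminogen activator, was depleted in fibroblasts alone (0.163 and 0.170 against 0.606 and 1.30 in DCs). Mmp11 was depleted in all 4 sets and Mmp1a in DCs alone. The smallest p of these genes were, for knockdown, at Plau (7.70 ± 2.49 SE, limma, adjusted p = 0.821) and Plat (5.04 ± 2.73 SE, limma, adjusted p = 0.856).

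Col4a1 and Col4a2, which encode the chains of basement-membrane collagen and are transcribed in opposite directions from TSSs 3 bp apart, had the smallest p for the cell-type comparison. The effect was −14.6 ± 4.58 SE at Col4a1 (limma, adjusted p = 0.999) and positive at Col4a2 (20.04 ± 6.68 SE, limma, adjusted p = 0.999), so the same fragments read in opposite directions gave effects of opposite sign. Col4a1 also had the smallest p of these genes for TNF-α (7.36 ± 2.03 SE, limma, adjusted p = 0.867), followed by Mmp11 (5.81 ± 2.97 SE, limma, adjusted p = 0.870). For the interaction the smallest were Col4a1 (−5.92 ± 3.66 SE, limma, adjusted p = 0.869) and Mmp8 (7.79 ± 5.49 SE, limma, adjusted p = 0.885), and for pol-II S7P they were Mmp1b (−10.7 ± 3.24 SE, limma, adjusted p = 0.743) and Col4a1 (−6.67 ± 3.96 SE, limma, adjusted p = 0.754).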

How the data were processed

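ChIP-MNase values of 15 libraries were analysed. Per the labels and the study's methods, the authors aligned reads to mm9 (bowtie in the methods, Bowtie2 and bedtools in the submitters' processing notes), removed excess duplicates, and deposited nucleosome occupancy as a signal in 10 bp bins, normalised to the local number of fragments and smoothed over neighbouring bins. An empty bin was read as 0. The deposited annotation gives a coverage score and FPKM values from other RNA-seq data. It also holds 2 columns of the authors' own log2 array differences upon stimulation, which were not used, so active promoters (expression above 0.02 times the mean) include inducible ones here. Symbols matched 24924 of 25881 promoters (96.3%).

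Patterning levels, NDR ratios (depleted under 0.5) and peaks were calculated in Python 3.11.15. Levels were tested over all 13559 promoters with a score above 100 by limma 3.58.1 in R 4.3.3, two-sided, with Benjamini-Hochberg adjustment at 0.05 and the terms TNF-α and BAF knockdown (8 single libraries), their interaction, pol-II S7P against H3K4me1 (4 libraries), or cell-type with pooling, stimulation and knockdown (12 libraries). The log2 NDR ratio, an alternative measure, used a pseudocount of 0.1. The scripts were tested on simulated data. Motifs were searched on both strands from −250 to 50 bp, and sequences were read from the mm9 reference genome. Gene names came from RefSeq and gene positions from GENCODE on the same build.

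All members were named, and of the other pathway genes the 2 with the smallest p per comparison. The members and lists were chosen with earlier results of these data known, and the AP-1 promoters to print, the counts of depletion combined over sets and the counts of libraries that do not overlap after values were seen. Replicates are separate samples by their labels. Alternatives are given in the closing section.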

Additional observations from a re-analysis of the deposited data

How the results depend on the processing

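No member was called in any of the 5 tests under any alternative run (other occupancy scale or scaling, no coverage filter, robust variance prior, NDR ratio in place of the level, subsets of libraries, each replicate left out). With the replicate number as a block, 0 promoters were called for TNF-α, for BAF knockdown, for their interaction and for pol-II S7P, as without it. Replicate numbers did not pair the libraries: the 6 correlations between same-numbered libraries of their deviations from group means were 0.000413 to 0.0120. Leaving out 1 library at a time gave 0 calls in these tests. For DCs against fibroblasts it gave 4 to 5 calls when 1 of the 8 single libraries was left out and 0 when 1 of the 4 pooled sets was, the latter fits being chosen after seeing the data. This count was 6 with all libraries and moved to 119 with occupancy as deposited, 10 with the pooled sets alone, and 0 with the square root of occupancy, with the NDR ratio or without the BAF-knockdown libraries. With occupancy as deposited, Timp1 and Mmp14 had adjusted p = 0.0919 and 0.118 (limma), and their direction was the same in all 20 alternatives, with effects of −7.90 to −21.9 and of −5.38 to −16.5 without 1 pooled set.

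Of the member effects given with a test, the TNF-α effect at Timp2 reversed to 1.14 in the replicate 1 libraries alone, and the pol-II S7P effect at Mmp9 ran from −0.66 to 16.4 over the 4 fits without 1 library, the negative value without S7P replicate 1. At Timp1 the S7P effect ran from 0.123 to 12.7, without stimulated control replicate 2 and replicate 1, and the TNF-α effect was −2.84 without stimulated control replicate 2. The cause was not tested.

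In non-stimulated DCs, 0 of 7 promoters were depleted, and 2 with the window from −100 to 50 bp or 1 with the flank on both sides. The count depleted in both pooled fibroblast sets and neither DC set was 3, and 2 to 3 under these alternatives. The promoter lost, with the window from −100 to 50 bp, was the upstream Mmp19 TSS. Median distances between flanking peaks moved to 360, 390, 320 and 310 bp with a stricter prominence. The read count of each library was not analysed here, so no counting interval is given.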
